A study of Mus musculus with 30 samples.

Results

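The 8 genes described here, Rgs1, Rgs2, Rgs3, Rgs10, Rgs14, Rgs16, Rgs18 and Rgs19, encode regulators of G-protein signalling (RGS). They form a list of named members of the gene family, drawn up with earlier results of these data known, and all 8 were among the 11262 genes that could be tested, of 16358 genes with a named probe. The arrays read RNA of dendritic cells grown in culture from the bone marrow of C57BL/6 mice, which present antigen to T cells, taken after LPS treatment by selection with CD11c magnetic beads. Cells of both genotypes carried a CD11c-Cre transgene, a recombinase driven by the promoter of the integrin CD11c. The control had the transgene alone, and the Irf4 knockout (KO) also had loxP-flanked alleles of Irf4, which encodes an interferon regulatory factor that binds DNA with ETS or AP-1 partners, so that deletion depends on CD11c promoter activity. Cells were left unstimulated or received lipopolysaccharide (LPS), a bacterial ligand of Toll-like receptor 4, for 6 or 24 h, which gave 6 groups of 5 arrays. Replicates are labelled as biological without naming the mouse or culture they came from, and the p-values therefore speak for the spread among these arrays alone.

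RGS proteins speed up the hydrolysis of GTP by the alpha subunit of heterotrimeric G proteins and so shorten the signal of a ligand-bound receptor. In leukocytes they are best known for limiting the response to chemokines and other chemoattractants, whose receptors couple to Gi. Rgs10 and Rgs14 belong to the R12 subfamily, Rgs1, Rgs2, Rgs3, Rgs16 and Rgs18 to the R4 subfamily of mostly small proteins, and Rgs19 to the RZ subfamily. In the mouse RefSeq gene order, Rgs2, Rgs13, Rgs1, Rgs21 and Rgs18 followed each other on chromosome 1 with no other protein-coding gene between them, and Rgs16 lies elsewhere on the same chromosome.

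The RefSeq table held promoters for 5 of the 8 genes. Of these, 3 belong to genes on which the results turn. Rgs10 was lower in KO cells in every treatment, Rgs16 higher in KO cells after 24 h of LPS, and Rgs2 fell with LPS in both genotypes. They are shown as the 250 bases before the annotated start of each gene. The sequences are from build GRCm38.p6, read 5′ to 3′ on the strand of the gene, with Rgs10 at chr7:128418173-128418422 on the minus strand, Rgs16 at chr1:153740103-153740352 on the plus strand and Rgs2 at chr1:144004150-144004399 on the minus strand. Capitals mark matches on either strand to 3 motifs. The first is TGACG, a short form of the cAMP response element (CRE), on which factors of the CREB family sit in many promoters. Another is the CCAAT box, as spelled, which the trimeric factor NF-Y is known to bind. The last is the GC box, spelled GGGCGG, which is known to be bound by Sp1-type zinc finger factors.
Rgs10: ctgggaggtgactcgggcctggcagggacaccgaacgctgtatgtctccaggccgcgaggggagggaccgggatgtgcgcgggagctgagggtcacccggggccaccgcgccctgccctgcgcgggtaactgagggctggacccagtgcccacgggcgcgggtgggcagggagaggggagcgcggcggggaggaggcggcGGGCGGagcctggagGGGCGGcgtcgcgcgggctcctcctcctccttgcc
Rgs16: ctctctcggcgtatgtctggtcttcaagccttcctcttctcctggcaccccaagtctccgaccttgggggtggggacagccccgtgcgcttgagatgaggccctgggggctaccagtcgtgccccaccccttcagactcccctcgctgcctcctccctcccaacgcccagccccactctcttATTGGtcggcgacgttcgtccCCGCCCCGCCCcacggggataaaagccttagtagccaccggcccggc
Rgs2: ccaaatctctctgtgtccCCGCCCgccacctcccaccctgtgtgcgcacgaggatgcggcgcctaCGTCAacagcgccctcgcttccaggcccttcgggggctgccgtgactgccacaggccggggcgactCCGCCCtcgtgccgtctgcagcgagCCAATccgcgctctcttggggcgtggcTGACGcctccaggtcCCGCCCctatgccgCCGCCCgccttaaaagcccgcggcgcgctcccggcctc
Rgs10 held 2 GC boxes, 50 and 35 bases before the start. Rgs16 held a CCAAT box on the opposite strand and 2 GC boxes that overlap by 1 base. Rgs2 held 2 short CRE matches, 185 and 67 bases before the start, a CCAAT box and 4 GC boxes. The letters are common: the short CRE was in 17.8% of 32841 promoter windows of the same length, a CCAAT box in 33.9% and a GC box in 32.7%. None of the 3 windows held the core letters of an interferon regulatory factor site (AANNGAAA, in 21.3% of windows), the ETS-IRF composite letters (GGAANNGAA, 6.99%), an AP-1 site (TGANTCA, 6.75%), an NF-kB site (GGGANTTCC, 1.43%) or a full CRE (TGACGTCA, 1.55%). These are matches of letters in short windows and no measurement of binding.

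The deleted gene was checked first. The Irf4 level, as a log2 ratio of sample over a universal mouse reference, was 1.41 ± 0.25 (SD, n = 5) in unstimulated control cells, 2.31 ± 0.24 at 6 h and 2.14 ± 0.33 at 24 h of LPS. In KO cells it was -1.49 ± 0.80, -0.11 ± 0.30 and -0.03 ± 0.44. Irf4 was lower in KO cells on every array in each treatment, 7.48-fold without LPS, 5.34-fold at 6 h and 4.5-fold at 24 h. In unstimulated KO cells 4 of the 5 arrays measured it well above background, at -2.51 to -0.84 over all 5, so the first of these folds rests in part on a signal near background. The position of the probe relative to the deleted sequence is not known here, so remaining signal in KO cells has no set meaning. Among the other facts of the series, the median Cy5 signal was 101 to 151 per array, and 44.8 to 66.1% of probes were well above background. Replicate 3 of control cells at 6 h and replicate 2 at 24 h shared the 1 slide that was scanned on a later day, and their RGS values lay apart from the other LPS arrays in several genes. Over the 2997 genes called for LPS at 6 h in KO cells, the median shift from unstimulated control cells, counted in the direction of the KO change, was -0.06 on that 6 h array and 0.52 to 0.65 on the other 4. Over the 2042 genes called at 24 h it was 0.13 on that 24 h array and 0.46 to 0.53 on the other 4. Both arrays thus lay nearer to unstimulated control cells than the rest of their groups did, and whether they hold the labelled samples was not tested. They enter the means of control LPS cells, and the called differences of the 8 genes that use those means are given without both arrays too. The values of other genes include them. No slide held both genotypes in the same treatment, so no genotype difference could be read within a slide. Of the marker lists, 6 of 10 tested dendritic cell markers were lower in unstimulated KO cells. Sums of Cy5 intensity, here and for the other lists, cover every marker with a named probe, including those that could not be tested. For dendritic cells they were 29200 to 58600 per array against 104000 to 245000 in control cells. Of the 9 macrophage markers that could be tested 1 was higher, with sums of 32400 to 65900 against 14700 to 51000. Of 8 neutrophil markers 1 was lower, with sums of 5350 to 46800 against 8730 to 91100, and Elane was on no array well above background. Of 4 plasmacytoid dendritic cell markers 1 was higher, with sums of 5270 to 14700 against 1830 to 10300. At 6 and 24 h of LPS 5 and 3 of the 10 dendritic cell markers were lower in KO cells, with sums of 46000 to 67000 against 93300 to 215000 and of 60200 to 89100 against 111000 to 279000. Of the 8 neutrophil markers 3 were lower at each time, with sums of 3840 to 22800 against 19300 to 141000 at 6 h and, without overlap, 2560 to 9430 against 9510 to 157000 at 24 h. The plasmacytoid sums at 24 h were higher in KO cells without overlap, at 4720 to 11400 against 1030 to 4030, with 1 of 4 markers called higher, and those at 6 h, 6530 to 7440 against 1430 to 8010, overlapped. None of the macrophage markers was called after LPS, with sums of 35500 to 84100 against 23500 to 56500 and of 41800 to 144000 against 17000 to 79600. The part of these shifts in the RGS differences was not tested.

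Rgs10 mRNA was lower in KO cells in every treatment and Rgs18 mRNA without LPS and at 6 h, while Rgs16 was higher in KO cells at 24 h. LPS lowered Rgs2 in both genotypes and raised Rgs14 at 6 h in both. Calls were made in limma at a Benjamini-Hochberg adjusted p below 0.05 over all genes tested. Without LPS, 3 of 8 RGS genes were called between genotypes, all 3 lower in KO cells, where 14.1% of all genes tested were called. At 6 h 2 of 8 were called, both lower, against 12.1% of all genes, and at 24 h 2 of 8, 1 in each direction, against 15.4%. The median log2 difference of the 8 genes was -0.38 without LPS, where that of all genes was -0.0382, -0.01 at 6 h and 0.04 at 24 h. In control cells LPS changed 3 of 8 at 6 h, where 11.6% of all genes were called, and 2 of 8 at 24 h, against 12.3%. In KO cells it changed 6 of 8 at 6 h, against 26.6%, and 4 of 8 at 24 h, against 18.1%. Between 6 and 24 h, 1 of 8 was called in control cells, against 5.48%, and 1 of 8 in KO cells, against 7.73%. The LPS response itself differed between genotypes in 0 of 8 at 6 h by limma, where 0.435% of all genes were called. At an unadjusted p under 0.05 these were 2 of 8 members and 8.04% of all genes. At 24 h it differed in 1 of 8, against 0.879%, and at an unadjusted p under 0.05 in 3 of 8, against 11.2%. Without both arrays of the later slide, the count in control cells at 6 h was 6 of 8, where the share of all genes called rose as well, to 25.6%. The 6 h and the 24 h responses of a genotype share the same unstimulated arrays, and their values are therefore only set side by side.

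**Figure D1:**
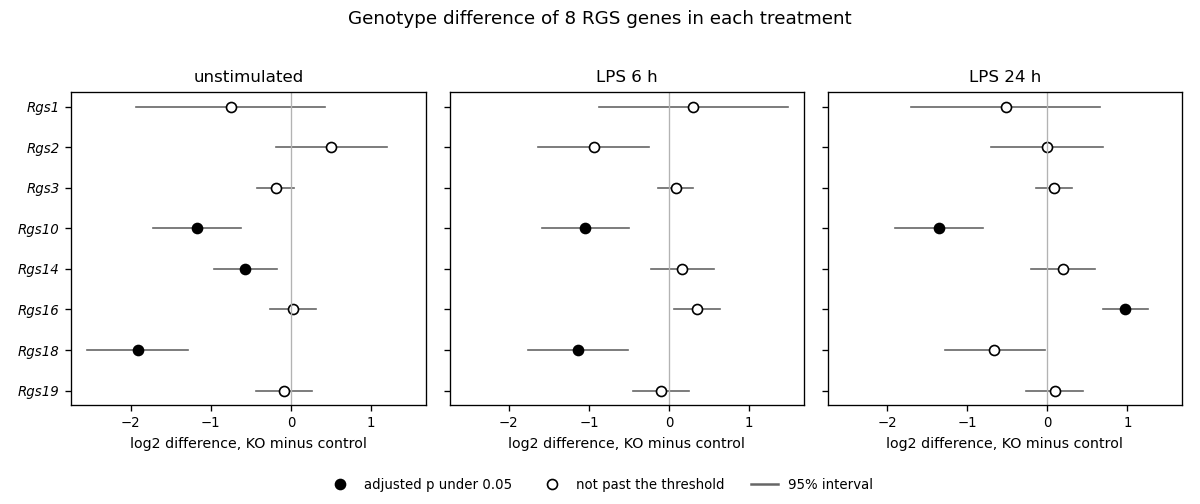
Difference in log2 level between Irf4 KO and control cells (x axis) for the 8 RGS genes in each treatment, with 95% intervals from limma over 5 arrays a group. Filled points passed the adjusted threshold: Rgs18, Rgs10 and Rgs14 without LPS, Rgs10 and Rgs18 at 6 h, and Rgs10 and Rgs16 at 24 h.

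Rgs10, which acts on Gi-type alpha subunits and is abundant in cells of the myeloid lineage, was lower in KO cells in all 3 treatments. In unstimulated control cells its 5 log2 ratios were 1.61, 1.67, 1.72, 1.54 and 1.77, and in unstimulated KO cells -0.04, 0.57, 0.59, 0.70 and 0.65. The groups did not overlap, and KO replicate 1 was the lowest array. The difference was -1.17 ± 0.27 (SE; limma adjusted p = 0.00311), a 2.25-fold lower level. At 6 h of LPS control cells gave 1.75, 1.68, 0.99, 2.00 and 1.98 and KO cells 0.15, 0.21, 0.28, 1.35 and 1.16. The groups overlapped only through control replicate 3, the array of the later slide, which lay below KO replicates 4 and 5. The difference was -1.05 ± 0.27 (limma adjusted p = 0.00902), and -1.22 (0.00236) without the later slide. With only the compared groups in the fit the 6 h call was lost (-1.05, 0.058). At 24 h control cells gave 1.44, 2.00, 1.36, 1.73 and 1.53 and KO cells -0.33, -0.23, -0.14, 1.09 and 0.94. Here the groups were apart again, although KO replicates 4 and 5 lay more than 1 log2 unit above the other 3 KO arrays. The difference was -1.35 ± 0.27 (limma adjusted p = 0.000832), or 2.55-fold, and -1.25 (0.00198) without the later slide. LPS did not move Rgs10 past the threshold in either genotype. In control cells its response was 0.02 (95% interval -0.53 to 0.56) at 6 h and -0.05 (-0.59 to 0.50) at 24 h, and in KO cells 0.14 (-0.41 to 0.68) and -0.23 (-0.77 to 0.32). With slide as a fixed term, the genotype calls were lost (limma adjusted p = 0.166, 0.0988 and 0.349), with differences of -1.21, -1.76 and -0.89, while with slide as a random block they held at 0.0131, 0.0173 and 0.0032. In bulk samples, fewer cells that express a gene and less of its RNA per cell cannot be told apart.

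Rgs14, which joins an RGS domain to Ras-binding domains and a GoLoco motif that holds Gi alpha subunits in the GDP-bound state, followed a transient course after LPS. In unstimulated KO cells its log2 ratios were 1.23, 1.79, 1.88, 1.74 and 1.72, which rose at 6 h to 2.79, 2.92, 3.25, 3.48 and 2.95 and stood at 2.25, 2.47, 2.71, 2.45 and 2.24 at 24 h. The 3 KO groups did not overlap. The rise at 6 h was 1.41 ± 0.19 (limma adjusted p = 5e-06), or 2.65-fold, and the level at 24 h was still 0.75 ± 0.19 above that of unstimulated cells (0.00692). That 24 h call was lost with slide as a fixed term (0.21, 0.679) and without unstimulated KO arrays 1 and 5 (0.62, 0.0622). The level was 0.65 ± 0.19 lower at 24 than at 6 h (difference -0.65, 0.0342). In control cells the arrays without LPS gave 2.22, 2.22, 2.22, 2.39 and 2.15, those at 6 h 3.13, 3.26, 2.32, 2.88 and 2.98, and those at 24 h 2.68, 1.49, 2.74, 2.09 and 2.13. Among the 6 h arrays only replicate 3, of the later slide, lay within the range of unstimulated cells. The rise at 6 h was 0.68 ± 0.19 (limma adjusted p = 0.0209; 0.82 and 0.000268 without the later slide). It lost its call without control LPS 6 h replicate 1 (0.62, 0.0711) or replicate 2 (0.59, 0.0812). At 24 h the mean of control cells differed from that without LPS by -0.01 (95% interval -0.41 to 0.38), and by 0.17 without the later slide (limma adjusted p = 0.507). The arrays were split: 2.68 and 2.74 lay above the unstimulated range of 2.15 to 2.39, and 1.49, 2.09 and 2.13 below it. The fall from 6 to 24 h was -0.69 ± 0.19 (0.0336), and that call was lost without any 1 of 7 arrays, among them control LPS 24 h replicate 2 of the later slide (-0.50, 0.1). Without both arrays of that slide the fall was called (-0.65, 0.0117). In KO cells the call of the fall was lost without any 1 of 6 arrays, at -0.55 to -0.67.

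Without LPS, the KO minus control difference of Rgs14 was -0.57 ± 0.19 (limma adjusted p = 0.0484), with no overlap between the 5 and the 5 arrays. This call was at the threshold and was lost without any 1 of 24 of the 30 arrays. It held in 7 of the 15 other settings. The difference was -0.36 (limma adjusted p = 0.313) with local backgrounds as scanned and -0.18 (0.666) with slide as a fixed term. Without KO replicate 1, the lowest array, the difference was -0.46 (adjusted p = 0.161). After LPS the genotypes were closer, at 0.16 (95% interval -0.23 to 0.56) at 6 h and 0.20 (-0.20 to 0.59) at 24 h. The difference of the LPS responses, KO minus control, was 0.73 ± 0.27 at 6 h (unadjusted p = 0.0124, adjusted 0.379) and 0.76 ± 0.27 at 24 h (0.00933 and 0.217 in limma), neither past the threshold.

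**Figure D2:**
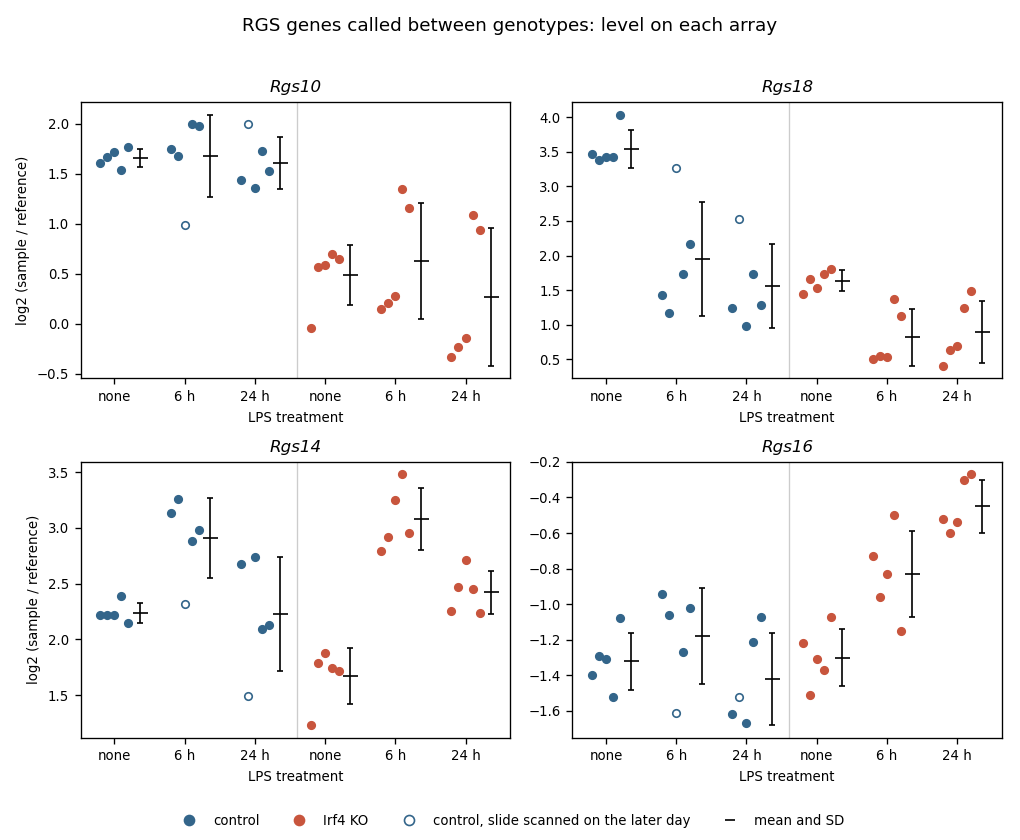
Log2 ratio of sample over reference (y axis) on every array for Rgs10, Rgs18, Rgs14 and Rgs16, by genotype and LPS treatment, with the mean and SD of each group beside its points. The open points are the 2 control arrays of the slide scanned later. Rgs10 lies between 1.36 and 2.00 on the control arrays other than the 6 h open point at 0.99, and Rgs16 at 24 h lies between -0.60 and -0.27 in KO cells, above all control arrays.

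Rgs18, an R4 member best known from platelets and megakaryocytes, had, of the 8 genes, the largest difference between the genotypes without LPS and the largest falls with LPS in control cells. Unstimulated control cells gave log2 ratios of 3.46, 3.38, 3.42, 3.43 and 4.03, and unstimulated KO cells 1.45, 1.66, 1.53, 1.74 and 1.80. All KO arrays lay far below all control arrays. The difference was -1.91 ± 0.31 (limma adjusted p = 8.13e-05), a 3.76-fold lower level. With local backgrounds as scanned it was -1.34 and just missed the threshold (0.0524). After 6 h of LPS control cells stood at 1.43, 1.17, 3.26, 1.74 and 2.17, and after 24 h at 1.25, 2.53, 0.98, 1.74 and 1.28. The highest array of each time was the one of the later slide, yet every LPS array lay below every unstimulated one. The fall was -1.59 ± 0.31 at 6 h (limma adjusted p = 0.00142) and -1.99 ± 0.31 at 24 h (0.000155), or 3.01-fold and 3.97-fold, and without the later slide -1.92 and -2.23. On the 1 slide that held control arrays of both kinds, the difference between the 2 arrays at 6 h and the 2 unstimulated ones was -2.43. The 6 h call held in 12 of the 15 other settings. It was lost with Agilent's own log ratios (limma adjusted p = 0.0582), local backgrounds as scanned (0.0815) and only the compared groups in the fit (0.0613).

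In KO cells Rgs18 went from its low unstimulated level to 0.50, 0.55, 0.54, 1.38 and 1.13 at 6 h and to 0.41, 0.64, 0.69, 1.25 and 1.49 at 24 h. Replicates 4 and 5 were the highest KO arrays at both times, and 1 of the 5 at 24 h was not well above background. The change at 6 h was -0.81 ± 0.31 (limma adjusted p = 0.0485), a call lost without any 1 of 19 of the 30 arrays, among them KO LPS 6 h replicate 3 (-0.74, 0.103). At 24 h it was -0.74 ± 0.31 (0.0957), and -0.74 with an adjusted p of 0.014 without the later slide, whose arrays enter here through the shared spread. The 24 h change was called in 4 of the 15 other settings, among them Agilent's own log ratios (-1.81, limma adjusted p = 0.0148). Over all 15 it ran from -1.81 to 1.37. Between genotypes the difference was -1.14 ± 0.31 at 6 h (limma adjusted p = 0.0137) and -0.66 ± 0.31 at 24 h (0.159), and without the later slide -0.81 (0.0172) and -0.41 (0.265). The 6 h call was lost with local backgrounds as scanned (-0.86, 0.261) and with only the compared groups in the fit (-1.14, 0.0989). At 24 h the sign turned with slide as a fixed term (1.41, 0.0304), and with Agilent's own log ratios KO cells were lower (-1.60, 0.0352). The difference of the 24 h responses, KO minus control, was 1.25 ± 0.43 with an adjusted p of 0.195, and 1.50 with an adjusted p of 0.0105 without the later slide. With slide as a fixed term it was 4.71 (limma adjusted p = 0.000898). Over the 15 other settings this difference ran from 0.19 to 4.71 and was called in these 2 alone. A second Rgs18 probe gave -1.50 without LPS (adjusted p = 0.000318), -0.95 at 6 h (0.0195) and -0.51 at 24 h (0.235) between genotypes. Rgs18 is also expressed in megakaryocytes and platelets. The sums of their markers with a named probe overlapped between unstimulated KO and control cells, at 5850 to 10600 against 4390 to 8150. They overlapped at 6 h too, at 5280 to 8930 against 3620 to 6870. Of the 6 markers that could be tested, 1 was called in each direction without LPS and at 6 h. At 24 h the sums did not overlap, at 7680 to 19100 against 2790 to 5810, with 2 markers higher and none lower in KO cells, and the median difference of the list was -0.03, 0.02 and 0.03 in the 3 treatments. Their part in the Rgs18 differences was not tested.

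Rgs16, an R4 member that limits Gi and Gq signalling and is induced in activated T cells, was called between the genotypes after 24 h of LPS. In unstimulated cells its log2 ratios were -1.40, -1.29, -1.31, -1.52 and -1.08 in control and -1.22, -1.51, -1.31, -1.37 and -1.07 in KO cells. These ranges were nearly the same, with a difference of 0.02 (95% interval -0.26 to 0.31). At 24 h control cells gave -1.62, -1.52, -1.67, -1.21 and -1.07, 1 of them not well above background, and KO cells -0.52, -0.60, -0.54, -0.30 and -0.27. All KO arrays lay above all control arrays. The difference was 0.97 ± 0.14 (limma adjusted p = 2.12e-05), or 1.96-fold, and it was called in every one of the 15 other settings and without each of the 30 arrays. Its size ranged from 0.87 to 1.96 on the log2 scale over those settings, the highest with Agilent's own log ratios, and it was 0.95 (2.65e-05) without the later slide. The 6 h arrays of KO cells gave -0.73, -0.96, -0.83, -0.50 and -1.15. They overlapped with unstimulated KO cells through replicate 5 and with the 24 h arrays through replicate 4. The LPS response of KO cells was 0.47 ± 0.14 at 6 h (0.0136; 0.38 and 0.0535 without KO LPS 6 h replicate 4, and not called in 5 of the 15 other settings) and 0.85 ± 0.14 at 24 h (8.87e-05). In control cells it was 0.14 (95% interval -0.15 to 0.43) and -0.10 (-0.38 to 0.19). The 24 h response was larger in KO cells by 0.95 ± 0.20 (limma adjusted p = 0.0151; 0.92 and 0.00779 without the later slide), a call lost with slide as a fixed term (1.31, 0.0858) or a random block (0.96, 0.053). At 6 h the difference of responses was 0.33 ± 0.20 (adjusted p = 0.769). With replicate number as a block, which here pairs KO arrays of the 2 times, Rgs16 was also higher at 24 than at 6 h in KO cells (0.39, adjusted p = 0.042 against 0.0897 without the block).

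**Figure D3:**
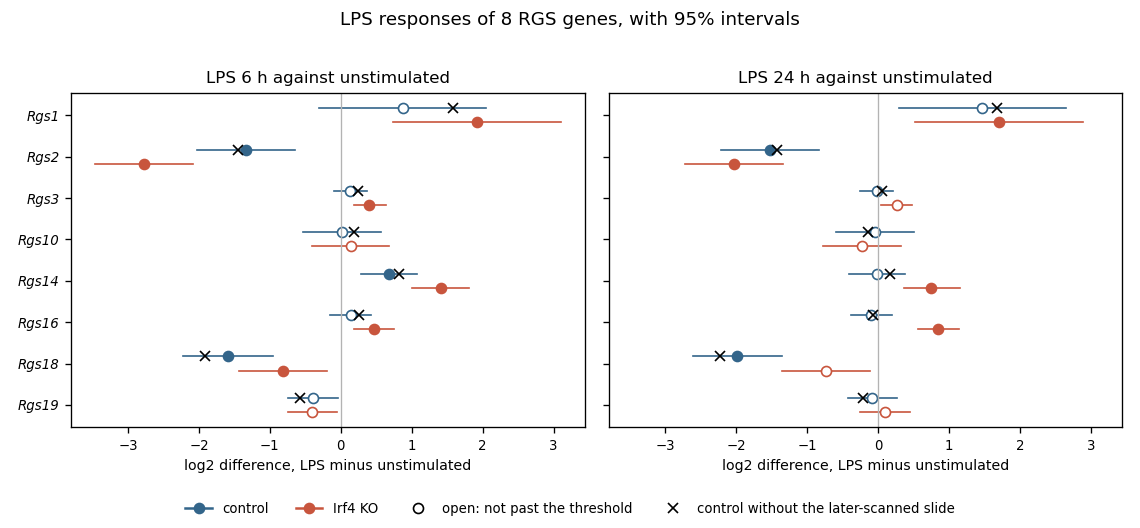
LPS response (x axis, log2 difference from unstimulated cells of the same genotype) of the 8 RGS genes at 6 and 24 h, with 95% intervals; filled points passed the adjusted threshold, and crosses give control cells without the later slide. Rgs2 lies left of 0 in both genotypes, at -2.78 in KO cells at 6 h, and Rgs16 lies at 0.85 in KO and -0.10 in control cells at 24 h.

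Rgs2, an R4 member that acts preferentially on Gq alpha subunits, fell with LPS in both genotypes. Control cells went from 1.70, 1.99, 2.16, 1.01 and 1.18 without LPS to -0.16, -0.61, 0.75, 0.74 and 0.66 at 6 h and 0.13, -0.32, 0.11, 0.20 and 0.34 at 24 h. KO cells went from 1.75, 2.31, 2.31, 2.19 and 2.01 to -0.73, -1.50, -1.43, -0.30 and 0.64 at 6 h and 0.05, -0.40, -0.53, 0.49 and 0.82 at 24 h. Every LPS array of a genotype lay below every unstimulated array of it, and among KO arrays replicates 4 and 5 were the highest at both times. The change in control cells was -1.33 ± 0.34 at 6 h (limma adjusted p = 0.00967; 0.0655 when only the compared groups entered the fit) and -1.52 ± 0.34 at 24 h (0.00418), or 2.52-fold and 2.87-fold lower. Without the later slide these were -1.45 (0.00368) and -1.42 (0.00609). In KO cells it was -2.78 ± 0.34 (1.26e-06) and -2.03 ± 0.34 (0.000109), or 6.86-fold and 4.08-fold lower. Within the slides that held both treatments, the 6 h change was -1.48 in control cells (2 arrays against 2) and -2.90 in KO cells (1 against 3). With slide as a fixed term the KO change at 24 h was -0.66 (0.585). The difference of the 6 h responses, KO minus control, was -1.45 ± 0.48 (adjusted p = 0.266), and -1.77 with an adjusted p of 0.0489 without KO LPS 6 h replicate 5. Between genotypes Rgs2 was not called in any treatment, at 0.50 (95% interval -0.19 to 1.20) without LPS, -0.94 (-1.64 to -0.25) at 6 h and 0.00 (-0.70 to 0.69) at 24 h. The 6 h value was called without KO LPS 6 h replicate 5 (-1.27, 0.00819) or control LPS 6 h replicate 2 (-1.16, 0.0247).

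Rgs1, an R4 member that dampens chemokine responses and is induced on activation of B and T cells, was higher after LPS in KO cells. Its unstimulated log2 ratios in KO cells were 3.90, 2.06, 2.25, 2.25 and 4.94, the widest spread of any unstimulated group. They were followed by 4.52, 4.43, 4.29, 5.95 and 5.84 at 6 h and 4.47, 4.47, 4.65, 5.09 and 5.25 at 24 h. Unstimulated replicate 5 overlapped with the LPS arrays. The rise was 1.92 ± 0.58 at 6 h (limma adjusted p = 0.0136) and 1.70 ± 0.58 at 24 h (0.0395), or 3.79-fold and 3.26-fold. With slide as a fixed term neither was called (0.475 and 0.175). The 24 h call held in 11 of the 15 other settings. It was also lost with backgrounds as scanned (limma adjusted p = 0.0554), no filter on dim probes (0.0542) and slide as a random block (0.0653). Without any 1 of 7 arrays it was lost too, at 1.45 to 1.78. Control cells gave 3.76, 3.52, 3.69, 3.86 and 4.34 without LPS, 5.14, 5.07, 1.86, 5.46 and 5.99 at 6 h and 5.32, 4.45, 5.17, 5.83 and 5.75 at 24 h. The 6 h array at 1.86 and the 24 h array at 4.45 were those of the later slide, and the first lay below all unstimulated control arrays. With all arrays the change in control cells was 0.87 ± 0.58 (limma adjusted p = 0.387) at 6 h and 1.47 ± 0.58 (0.0944) at 24 h, and without the later slide 1.58 (0.0104) and 1.68 (0.00875). With replicate number as a block, which pairs unstimulated and 24 h control arrays, the 24 h change was also called (0.0198). Between genotypes Rgs1 was at -0.75 (95% interval -1.93 to 0.43) without LPS, 0.30 (-0.88 to 1.48) at 6 h and -0.52 (-1.70 to 0.66) at 24 h.

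Rgs3, which acts on Gi and Gq alpha subunits and is made as several isoforms, gave different results by probe. On its brightest probe the level was 0.36 ± 0.07 (SD, n = 4, since replicate 1 was dropped as an outlier spot) in unstimulated control and 0.17 ± 0.15 (n = 5) in unstimulated KO cells. The difference was -0.19 (95% interval -0.43 to 0.04), and at 6 and 24 h of LPS it was 0.08 at both times. In KO cells it rose by 0.40 ± 0.11 at 6 h (limma adjusted p = 0.00605), with no overlap between 0.45 to 0.79 and -0.01 to 0.36. That rise was not called on any of the other 4 probes, at 0.08, 0.31, 0.30 and 0.01 (adjusted p = 0.124 to 0.962), or in the mean over the 5 probes (0.22, 0.172). The call was also lost with median centring (0.23, 0.235), Cy5 alone (0.28, 0.357), slide as a fixed term (0.28, 0.354) and without unstimulated KO arrays 1 and 5 (0.32, 0.0655). Between genotypes, 2 of the other 4 probes were called lower in KO cells without LPS, at -0.74 (0.00379) and -0.62 (0.00437), and 3 at 24 h, at -0.61, -0.66 and -0.63 (0.0158, 0.00246 and 0.00721). The mean over the 5 probes was lower in KO cells without LPS (-0.43, adjusted p = 0.0148) and at 24 h (-0.44, 0.0109). The other 4 probes were dimmer, with a mean log2 Cy5 intensity of 6.7 to 7.6 against 10.9. From 6 to 24 h in control cells 2 of them rose, by 0.68 (limma adjusted p = 0.00489) and 0.58 (0.0298), where the brightest probe gave -0.16. In KO cells 1 of them was called higher at 24 h than without LPS (0.52, 0.037). Which isoforms the probes read was not tested.

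Rgs19, the RZ member also called GAIP, acts on Gi-type alpha subunits and was not called between the genotypes in any treatment. Its level was 0.91 ± 0.11 in unstimulated control and 0.82 ± 0.14 in unstimulated KO cells (both SD, n = 5), and the genotype differences were -0.09 (95% interval -0.44 to 0.26), -0.10 (-0.45 to 0.25) and 0.09 (-0.26 to 0.44) without LPS, at 6 and at 24 h. At 6 h of LPS KO arrays gave 0.40, 0.53, 0.21, 0.46 and 0.50, all below the unstimulated range of 0.62 to 0.96. That change was -0.40 ± 0.17 (limma adjusted p = 0.0822), and 0.0112 without the later slide. Control arrays at 6 h gave 0.15, 0.04, 1.28, 0.74 and 0.40. All but replicate 3, the array of the later slide at 1.28, lay below the unstimulated range of 0.81 to 1.09. The change was -0.39 ± 0.17 (0.149) with all arrays and -0.58 (0.00118) without the later slide. From 6 to 24 h Rgs19 was at 0.50 ± 0.17 in KO cells (0.0707; 0.0371 with replicate number as a block). A second Rgs19 probe gave smaller changes, none of them called. At 6 h they were -0.23 in control (limma adjusted p = 0.193) and -0.16 in KO cells (0.288). From 6 to 24 h in KO cells that probe gave 0.26 (0.151).

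**Figure D4:**
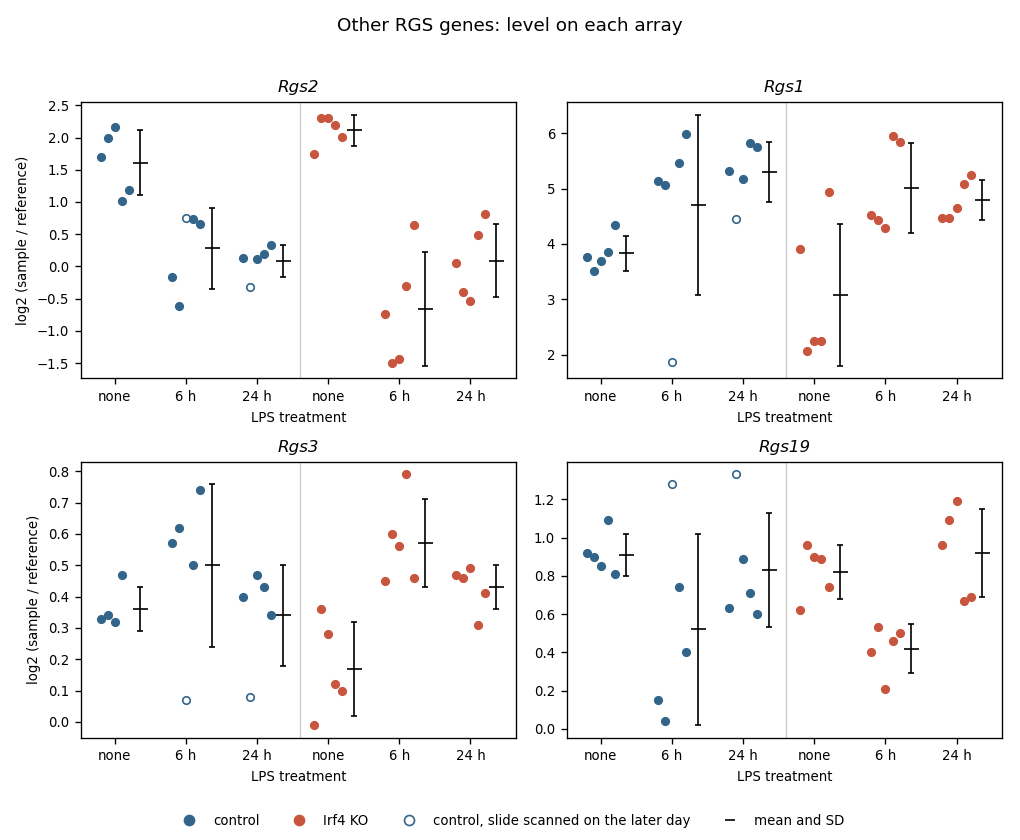
Log2 ratio of sample over reference (y axis) on every array for Rgs2, Rgs1, Rgs3 and Rgs19, by genotype and LPS treatment, with the mean and SD of each group. Rgs2 lies between 1.01 and 2.31 without LPS and between -1.50 and 0.82 with it, and the open points are the control arrays of the later slide, at 1.86 for Rgs1 and 1.28 for Rgs19 at 6 h.

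Within the whole set of 30 arrays, the log2 ratios of Rgs3 and Rgs14 varied together (r = 0.86), Rgs2 and Rgs14 in opposite directions (r = -0.66), and Rgs10 and Rgs18 together (r = 0.61). These are descriptions over arrays that share their 6 groups and 1 reference. Of the other genes, Chn2, a Rac GTPase-activating protein, was most like Rgs18 (r = 0.95), followed by Lrmp (0.934) and Trib2 (0.913). Rgs10 was most like Upb1 (0.933), Commd4 (0.92) and Igbp1 (0.915). Rgs2 was most like Idh1 (0.914), the cytosolic isocitrate dehydrogenase, Rab31 (0.908) and Sesn1 (0.903), and Rgs1 most like Arl5a (0.91), Cd72 (0.905), a receptor of the C-type lectin family, and Pla1a (0.904). Rgs14 was most like Usb1 (0.925), Rgs16 like Atp1b1 (0.869), Rgs3 like Fermt2 (0.895) and Rgs19 like Scd2 (0.871). Over the 6 group means the 3 most like genes of each member had r of 0.988 to 0.997, as so few points allow for many genes.

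The other genes of the pathway were read from fixed lists, whose counts stand against the shares of all genes above. Of 13 other RGS genes 10 had a named probe and 1, Rgs12, could be tested. It fell in KO cells at 6 h of LPS, by -0.72 ± 0.20 (limma adjusted p = 0.00743). It was called in none of the other 10 comparisons, where its differences ran from -0.91 to 0.52. Of 9 G protein alpha subunits 1 was higher and 1 lower in KO cells without LPS, Gnaq by 1.17 ± 0.31 (0.0103) and Gnai1, a Gi subunit, by -0.52 ± 0.13 (0.00749). At 24 h 3 of 9 were lower and none higher, all 3 of them Gi subunits: Gnai2 (-1.03 ± 0.24, 0.00326), Gnai1 (-0.90 ± 0.13, 2.76e-05) and Gnai3 (-0.80 ± 0.15, 0.000415). At 6 h 2 of 9 were lower, Gnai2 and Gnai1 again. The median of the list was -0.01, -0.09 and 0.02 in the 3 treatments. Of 11 beta and gamma subunits 1 was higher and 1 lower without LPS, Gng8 (1.34 ± 0.18, 1.28e-05) and Gng12 (-1.25 ± 0.28, 0.0027), and at 24 h 1 was higher and 2 lower.

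Among 15 receptors for chemokines and chemoattractants, the inputs that RGS proteins limit, 2 were lower in KO cells without LPS and 3 at each time of LPS, and none was higher. Ccr2, the receptor for monocyte-attracting chemokines, differed by -3.40 ± 0.53 without LPS (KO minus control, limma adjusted p = 6.67e-05), -4.09 ± 0.53 at 6 h and -3.49 ± 0.53 at 24 h. Ccr7, which guides dendritic cells to lymph nodes, was lower without LPS (-1.79 ± 0.51, 0.018). LPS raised the formyl peptide receptors in both genotypes, Fpr2 at 6 h by 2.18 ± 0.52 in control and 3.42 ± 0.52 in KO cells and Fpr1 by 1.68 ± 0.35 and 2.24 ± 0.35, within 3 called higher and 2 lower of 15 in control and 4 higher and 3 lower of 15 in KO cells. Cxcr4 fell in control cells at 6 h (-1.85 ± 0.33, 0.000829). From 6 to 24 h it rose in both genotypes, by 2.25 ± 0.33 in control (0.00011) and 1.19 ± 0.33 in KO cells (0.022). Of 18 receptors for lipids, adenosine and nucleotides, 5 rose and 2 fell with LPS at 6 h in KO cells, among them Gpr84 (2.89 ± 0.43) and Adora2b, an adenosine receptor (2.22 ± 0.23). The response of Adora2b differed between genotypes by 1.66 ± 0.33 at 6 h (0.0104) and 1.69 ± 0.33 at 24 h (0.00897). For Rgs16 only the 24 h response did. Adora2b was lower in KO cells without LPS (-0.74 ± 0.23, 0.03) and higher at 6 h (0.92 ± 0.23, 0.00813) and 24 h (0.95 ± 0.23, 0.00496).

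Downstream of the receptors, 1 of 7 receptor kinases and arrestins was lower in KO cells in each treatment, Grk3 at -1.27 ± 0.25 without LPS (limma adjusted p = 0.000842), -0.81 ± 0.25 at 6 h and -1.60 ± 0.25 at 24 h. LPS lowered Grk6 in both genotypes at both times, with changes of -0.89 to -0.51. At 6 h 2 of the 7 fell and 0 rose in control cells, and 3 fell and 1 rose in KO cells. Arrb1 changed most then, at -1.91 ± 0.51 in control (limma adjusted p = 0.014) and -2.44 ± 0.51 in KO cells (0.000744). At 24 h 1 fell and 1 rose in each genotype, the latter Grk3 (1.08 ± 0.25, 0.00557 in control and 0.75 ± 0.25, 0.037 in KO cells). Of 14 effectors 3 were higher and 2 lower in unstimulated KO cells, among them the adenylyl cyclases Adcy3 (1.18 ± 0.16, 1.25e-05) and Adcy6 (-1.44 ± 0.35, 0.00576). The LPS response of Adcy3 also differed between genotypes, KO minus control. This difference was -1.02 ± 0.23 at 6 h (limma adjusted p = 0.0317) and -0.92 ± 0.23 at 24 h (0.0443). Of 9 other regulators of G protein alpha subunits and related genes 1 was higher and 2 lower without LPS. Among them Gpr65, a proton-sensing receptor, was lower in KO cells in all 3 treatments (-0.99 ± 0.20, -1.88 ± 0.20 and -1.46 ± 0.20). Ric8b, a chaperone of alpha subunits, was higher without LPS (0.42 ± 0.10, 0.00332) and at 6 h (0.31 ± 0.10, 0.0343).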

How the data were processed

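RNA was hybridised in Cy5 against universal mouse reference RNA in Cy3 on 30 two-colour arrays, per the labels. Per the file headers, Feature Extraction 10.7.3.1 made the deposited spot intensity values. It also wrote the deposited log10 ratios of the channels, which it had background subtracted and dye normalised. The authors further deposited a table of log2 ratios. Its columns correlated at 0.999885 to 0.999998 with the ratios made here, which makes it sample over reference. They had medians of 0.00584 to 0.0183. These ratios, nearly the same as those made here, were among the 15 other settings.

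Here limma 3.58.1 (R 4.3.3) applied normexp (offset 50) and then loess to the intensities of each array. A local background marked as non-uniform was replaced by the median of its array, and control spots and spots marked as outliers were left out. Probes were named through transcript accessions and RefSeq (22951 of 41174). Genes were represented by their brightest Cy5 probe and kept if it was well above background on all 5 arrays of at least 1 group. One mean per group was fitted to all 30 arrays (24 residual degrees of freedom), with Benjamini-Hochberg adjustment over 11262 genes within each of 11 comparisons. The members and gene lists were chosen with earlier results of these data known. All 8 members were named in every comparison, with up to 3 called genes of largest difference per list and the 3 genes most like each member. Promoter motifs were chosen after the sequences were seen, and the shift of each control LPS array after the values were seen. The tests were tried on simulated data. Replicate numbers were taken as pairs where every pair's deviations from the group means correlated above 0.1: control 24 h with unstimulated (0.18 to 0.73), KO 6 h with unstimulated (0.11 to 0.66) and KO 24 h with 6 h (0.79 to 0.87). Alternatives covered background, normalisation, reference channel, probe choice, filter, variance model, slide, replicate block and each array left out. The number of arrays limits the precision.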

Additional observations from a re-analysis of the deposited data

Results flagged for a closer look

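Over 48 combinations of a member and a group, 5 had an array farther from the rest than the critical gap for its group size, where chance gives about 1 in 20 groups. Rgs1 was at 1.86 on control LPS 6 h replicate 3, an array of the later slide, and Rgs3 at 0.47 on unstimulated control replicate 5, in a group of 4. Unstimulated KO replicate 1 was the lowest of its group for Rgs10, at -0.04, and for Rgs14, at 1.23. Rgs18 was at 4.03 on unstimulated control replicate 5, the array with the largest share of probes well above background (66.1%).

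The 24 h response of Rgs16 differed between the genotypes by 0.95 (KO minus control) in a test of the difference itself.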

How the results depend on the processing

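Of 25 calls among the 88 member results, 6 held in all 15 other settings and without each of the 30 arrays: Rgs2 in KO cells at 6 h and in control cells at 24 h, Rgs14 in KO cells at 6 h, Rgs16 between genotypes at 24 h and in KO cells at 24 h, and Rgs18 in control cells at 24 h. Without each array in turn 18 of the 25 held. Counted over members, comparisons and the other settings, 56 values lost a call, 38 gained one and 2 reversed. These were Rgs18 between genotypes at 24 h with slide as a fixed term (1.41, against -0.66) and Rgs3 there with the mean over its probes (-0.44, against 0.08). No slide held both genotypes in a treatment, so the first rests on links through other groups. The causes of these and the changes below were not tested.

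In what follows the percentage after a count is the share of all genes called in the same fit. The count of members called between genotypes without LPS was 1 with backgrounds as scanned (12.8%) or slide as a fixed term (50.6%). At 6 h it was 1 in both (10% of all genes and 1205 of 11262), 0 with only the compared groups (6.45%) and 4 where replicates 1 to 3 and 4 to 5 had a term of their own (24.9%), chosen after seeing the data, as were leaving out unstimulated KO arrays 1 and 5 and reading the other probes. For LPS at 6 h in control cells it was 0 with only the compared groups (0.586%) and 6 without the later slide (25.6%). In KO cells it was 3 with median centring (16.7%) or slide as a fixed term (7.93%), and at 24 h 1 with the latter (55.3%). Between 24 and 6 h in control cells it was 0 with backgrounds as scanned (4.23%), median centring (1.85%) or only the compared groups (0.666%). In KO cells it was 0 with backgrounds as scanned (6.17%), median centring (3.31%) or slide as a random block (4.22%) and 2 with only the compared groups (10.4%). It was 3 there with Cy5 alone (9.8%), the replicate block (17.9%), the term for replicates (19.1%) or without the later slide (13.2%). The difference of responses at 24 h was called in 0 members with slide as a random block (0.311%) and 2 without the later slide (1.78%).

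Without each array in turn the counts ranged from 2 to 5 for control cells at 6 h, 0 to 2 for control cells between 24 and 6 h, 0 to 3 for KO cells between 24 and 6 h and 0 to 1 for the difference of responses at 6 h. Where replicate numbers did not pair the samples, the replicate block added only Rgs2 between genotypes at 6 h (-0.94, adjusted p = 0.0344) to the calls. Where they did, it changed no call beyond those given with Rgs1, Rgs16 and Rgs19.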
